A study of Mus musculus with 6 samples.

Results

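Reactive astrocytes, the state that these support cells of the brain enter after injury or inflammation, switch on a set of genes for secreted and cell surface proteins. The set described here comprises 8 genes: the complement gene C3, the protease inhibitor genes Serping1, Serpina3n and Timp1, the iron and copper genes Lcn2, Cp and Steap4, and the cytokine receptor gene Osmr. They were chosen by symbol as complement, acute-phase and receptor genes known to be induced in reactive astrocytes. The tables spell them as C3, SERPING1, SERPINA3N, TIMP1, LCN2, CP, STEAP4 and OSMR; mouse symbols are used below. All 8 were found among the 13970 genes listed in the authors' deposited tables.

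RNA of heavy complexes, that is ribosomes, polyribosomes and other RNA-protein particles pelleted through a sucrose cushion, was sequenced from thawed and cultured primary astrocytes of newborn C57BL/6JOlaHsd mice of both sexes. There were 6 libraries of untreated cells, 3 prepared by an optimized and 3 by a standard extraction, with a library of batch A, of batch B and of batch C in each. For the optimized extraction, lysis took place directly in the dish, in a buffer with the mild detergent DDM and more salt. For the standard extraction, cells were scraped off, frozen and later lysed in Triton X-100 and sodium deoxycholate with less salt; cycloheximide, which holds ribosomes on mRNA, was present in both. No inflammatory stimulus was part of the design, so no value given here measures induction of these genes. The values are log2 ratios of optimized over standard extraction, 1 per gene and without an error. Neither the batch-to-batch spread nor the sequencing depth is therefore known, and no gene could be tested across libraries.

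As background, messages for secreted and membrane proteins are translated by ribosomes docked on the endoplasmic reticulum (ER), to which a hydrophobic stretch of the nascent protein, often an N-terminal signal peptide, directs them. In reactive astrocytes the secreted products of these genes feed the complement cascade, block extracellular proteases and bind or oxidise metals. Signals through the oncostatin M receptor and the transcription factor STAT3 are known to drive several of them.

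The start of each protein is written in the first codons of its mRNA. These codons are shown here for the members with the lowest ratios and the member with the highest. Also shown are the 2 members without an N-terminal hydrophobic stretch by the measure used here. Each line gives the first 30 codons of the representative coding transcript (GENCODE M21, mm10). The capitals mark 19 codons for the most hydrophobic window near the start, where its mean on the Kyte-Doolittle scale of hydrophobicity reached 1.6.
C3: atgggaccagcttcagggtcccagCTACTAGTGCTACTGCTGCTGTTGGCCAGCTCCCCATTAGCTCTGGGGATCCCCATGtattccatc
Timp1: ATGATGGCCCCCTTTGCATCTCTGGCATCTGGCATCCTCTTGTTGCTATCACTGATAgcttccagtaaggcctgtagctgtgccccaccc
Serpina3n: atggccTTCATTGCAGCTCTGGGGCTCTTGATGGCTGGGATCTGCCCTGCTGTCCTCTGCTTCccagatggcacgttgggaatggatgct
Serping1: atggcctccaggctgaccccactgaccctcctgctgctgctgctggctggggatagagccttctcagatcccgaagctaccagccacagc
Steap4: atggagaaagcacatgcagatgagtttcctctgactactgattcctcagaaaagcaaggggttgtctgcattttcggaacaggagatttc
In C3 the window spans codons 9 to 27, in Timp1 codons 1 to 19 and in Serpina3n codons 3 to 21. The run of leucine codons near the start of Serping1 is shorter than the window, whose highest mean there was 1.11. Steap4 is a multi-pass membrane protein, and its start holds no such run.

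All 8 transcripts were listed for both extractions, as were 95.0% of the listed genes, and all 8 were higher in the optimized extraction, but each by less than most genes. None of the 8 was at least 2-fold higher, against 63.0% of the 13278 shared genes, and none was at least 2-fold lower, against 0.00753%. At 1.5-fold or more, 6 of the 8 were higher, against 94.6% of the shared genes. All 8 ratios lay above 0, as did 99.6% of the shared genes. All 8 also lay below the median of the shared genes, as 50.0% of those genes do by construction, and all 8 lay below the lower quartile of 0.90. The median log2 ratio of the 8 in the authors' deposited table was 0.71, or 1.63-fold higher in the optimized extraction, against 1.09 and 2.13-fold for all shared genes. The authors' scaling was not given in the sources used here; each gene is therefore also placed against the other genes. None of the 8 lay 2-fold or more below the shared median, as 0.587% of the shared genes did. None of the 8 was among the 617 genes listed for the optimized extraction alone (4.42% of those listed) or the 75 listed for the standard extraction alone (0.537%). Each library pools all the cells of a culture. Fewer cells of a type, less RNA per cell and lower recovery by an extraction therefore cannot be told apart.

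**Figure D1:**
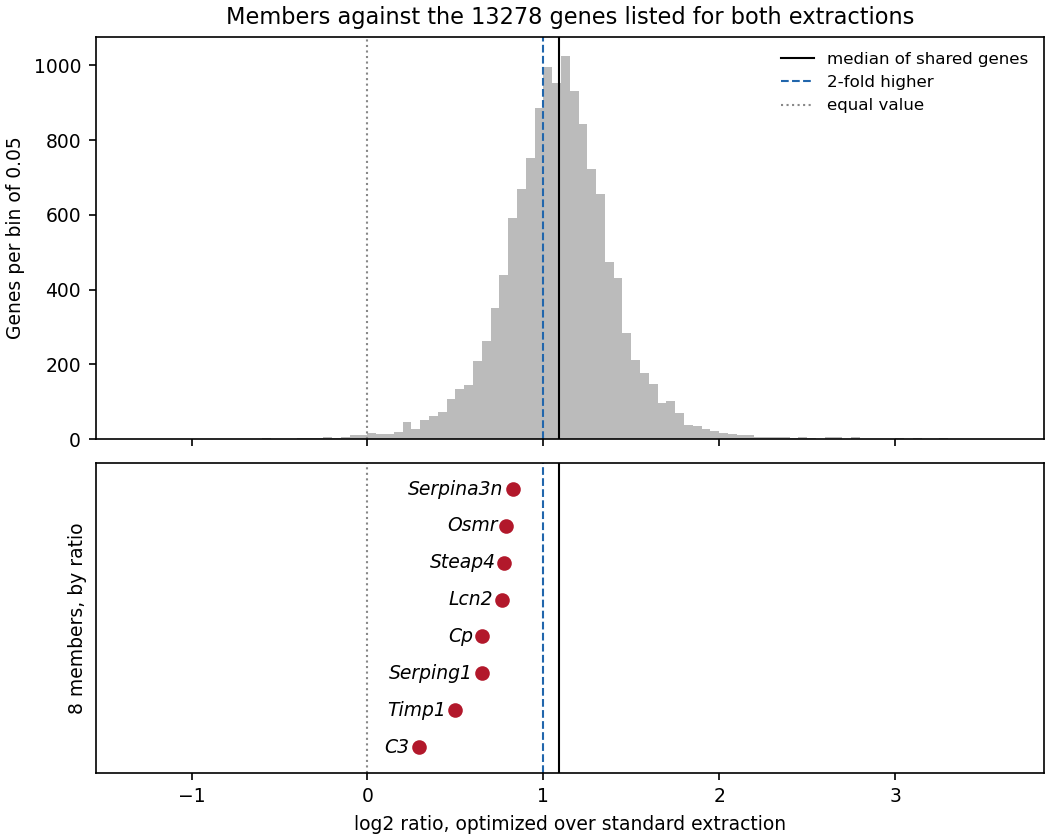
Top: number of shared genes in bins of the log2 ratio, optimized over standard extraction. Bottom: the 8 members in order of their ratio; points are single deposited values with no error. All 8 lie between the line of equal values and the 2-fold line, from C3 at 0.29 to Serpina3n at 0.82, and left of the median of the shared genes at 1.09.

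C3, the central component of the complement cascade, where the classical, lectin and alternative routes meet, had the lowest ratio of the 8. The authors' deposited table listed C3 (mm10 chromosome 17, 57203970 to 57228136, minus strand) at 0.29, a 1.22-fold higher value with the optimized extraction. That was rank 181 from the lowest of 13278 shared genes. Against the shared median its ratio was 0.80 lower on the log2 scale, or 0.575 times as large. C3 lay below its structural relatives: in the authors' deposited table C4b, a component of the classical and lectin routes, was listed at 0.65. Hc, which encodes complement C5, stood at 1.46 in the authors' deposited table, so the ratio of C3 was 0.445 times that of Hc. The annotated microRNA gene Mir6978 lies within C3 on the same strand, so the value of C3 can include its reads.

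Serping1 encodes the C1 inhibitor, which blocks the proteases C1r and C1s that start the classical route and the MASP proteases of the lectin route. It lies on chromosome 2 (84765387 to 84775444, minus strand) and stood at 0.65 in the authors' deposited table, a 1.57-fold higher value with the optimized extraction. The proteases it acts on had ratios to either side: C1ra was listed at 0.61, C1s1 at 0.43 and Masp1 at 0.75 in the authors' deposited table. The other complement genes lay mostly low as well. Of 38 genes of the complement list 19 were shared, 17 of these lay below the shared median, and 2 were at least 2-fold higher (10.5%, against 63.0% of shared genes). The list median was 0.65, and 0.68 over the 17 genes that are not among the 8. Below Serping1 lay Vtn, which encodes vitronectin, an inhibitor of the terminal complex, at 0.32 in the authors' deposited table. C1rl, a gene for a C1r-like protease, stood at 0.42 in the authors' deposited table. At the other end, the authors' deposited table listed Cd46, a gene for a membrane regulator of C3 fragments, at 1.54, next to Hc. Cfp, the gene of properdin, was listed for the optimized extraction alone. None of the 17 other shared complement genes was lower than C3. C3ar1, the receptor gene for the C3a fragment, stood at 0.51 in the authors' deposited table.

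Timp1 had the next lowest ratio after C3 and was the lowest of the shared metalloproteinase and inhibitor genes. TIMP1 is a small secreted protein that blocks matrix metalloproteinases. The authors' deposited table listed Timp1 (chromosome X, 20870166 to 20874735, plus strand) at 0.50, a 1.41-fold higher value with the optimized extraction and rank 479 from the lowest. The 3 other genes of its family lay together near the shared median: the authors' deposited table listed Timp2 at 1.06, Timp4 at 1.03 and Timp3 at 1.03. The ratio of Timp1 was thus 0.678 times that of Timp2 and 0.692 times that of Timp4, with no replicate check on these differences. Of 25 listed inhibitors and metalloproteinases 20 were shared. Among these 19 lay below the shared median, 5 were at least 2-fold higher (25.0%, against 63.0%) and the list median was 0.78. The lowest of the rest were Mmp3, which encodes stromelysin 1, and the membrane-type protease gene Mmp15, both at 0.58 in the authors' deposited table. The highest were the aggrecanase gene Adamts5 at 1.10 and Mmp17 at 1.08 in the authors' deposited table. Timp1 was the only member in any of the authors' 6 gene lists, as rank 40 from the lowest of 280 extracellular matrix genes. Median log2 ratios were 0.77 for that list, 0.80 for the ER lumen list and 0.79 for the external side of the plasma membrane. These medians also lay below the shared median, unlike those of the DNA packaging (1.21), mRNA splicing (1.28) and ribosome (1.48) lists.

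Serpina3n had the highest ratio of the 8. It encodes a secreted inhibitor of serine proteases and is among the genes most used to mark reactive astrocytes in mice. The authors' deposited table listed Serpina3n (chromosome 12, 104406729 to 104414329, plus strand) at 0.82, a 1.77-fold higher value with the optimized extraction and rank 2323 from the lowest of 13278. Its neighbour in the same gene cluster, Serpina3m, stood at 0.53 in the authors' deposited table. The count of Serpina3n is uncertain: 6.90% of the stretches of 50 bases in its transcript recur in transcripts of 7 other genes. The largest share with a single gene was 2.68%, with Serpina3e-ps. For the 7 other members 0 such stretches recur, and Serpina3m was not examined in this way. Of the serpin genes 19 were shared, with a list median of 0.75. Among these 18 lay below the shared median and 3 were at least 2-fold higher (15.8%, against 63.0% of shared genes). The lowest was Serpind1, which encodes heparin cofactor II, at -0.39 in the authors' deposited table, that is, lower in the optimized extraction. Serpinb11 followed at 0.15, whereas the highest were Serpinb1b at 1.15 and Serpinb6a at 1.04 in the authors' deposited table. Serpinb5 was listed for the optimized extraction alone.

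**Figure D2:**
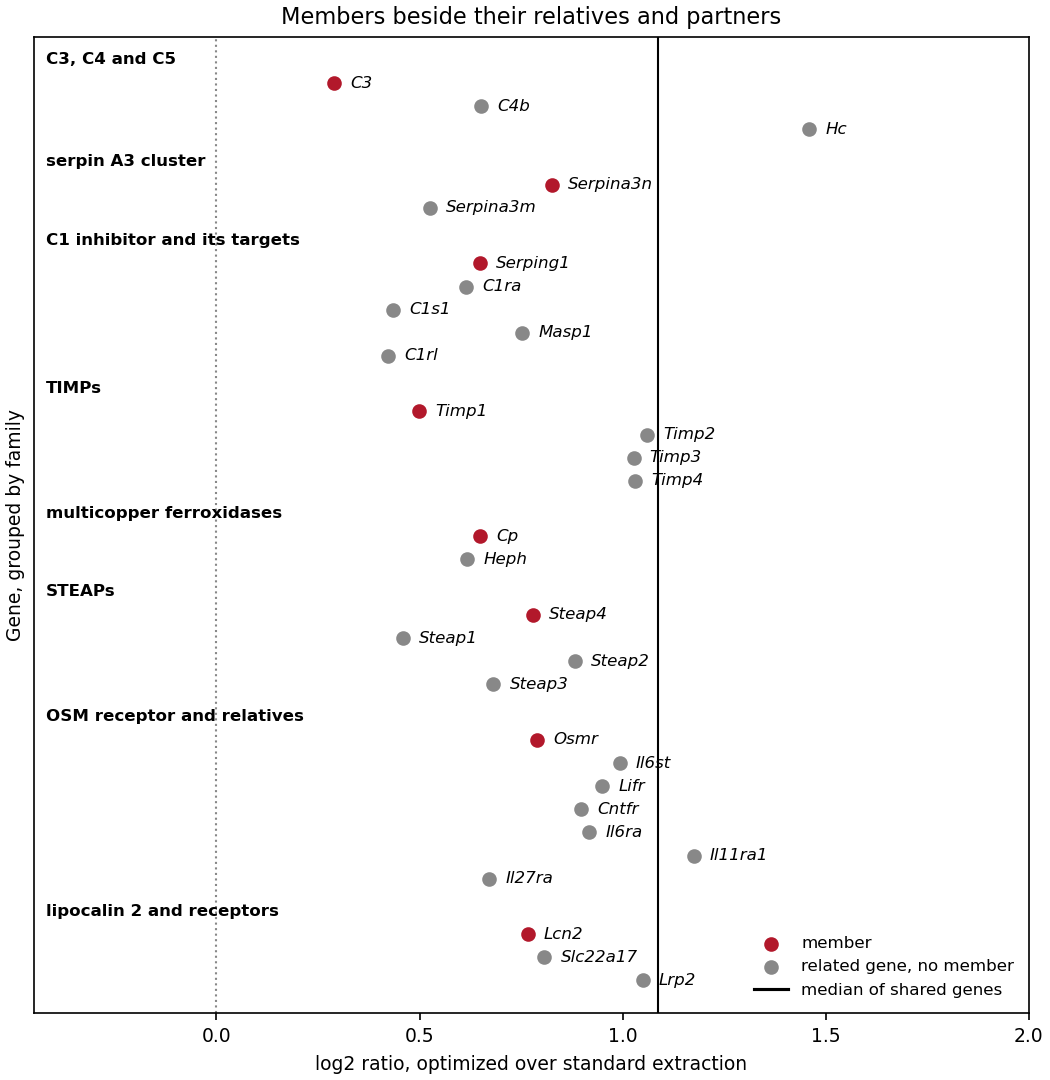
Log2 ratio of each member (red) beside related genes and partners (grey) that were listed for both extractions; points are single deposited values with no error. Timp1 at 0.50 lies left of the 3 other TIMP genes at 1.03 to 1.06, C3 at 0.29 lies left of Hc at 1.46, and Cp at 0.65 lies beside Heph at 0.62.

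The metal-handling members lay between these ends. Cp encodes ceruloplasmin, a copper protein that oxidises iron as it leaves the cell and that astrocytes also carry in a form anchored to the membrane. Cp (chromosome 3, 19957054 to 20009145, plus strand) stood at 0.65 in the authors' deposited table, a 1.57-fold higher value with the optimized extraction. It differed from Serping1 by 0.00057 on the log2 scale. Heph, the gene of the related ferroxidase hephaestin, stood at 0.62 in the authors' deposited table, a like value. Slc40a1, the gene of the iron exporter ferroportin with which ceruloplasmin works, was listed at 1.63, far above Cp, in the authors' deposited table.

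Lcn2 encodes lipocalin 2, a secreted protein that binds iron-carrying siderophores. The authors' deposited table listed Lcn2 (chromosome 2, 32384633 to 32388252, minus strand) at 0.77, a 1.70-fold higher value with the optimized extraction. Genes of its receptors were listed at 0.81 (Slc22a17) and 1.05 (Lrp2) in the authors' deposited table. Steap4 encodes a membrane reductase of iron and copper. Steap4 (chromosome 5, 7960457 to 7982213, plus strand) stood at 0.78 in the authors' deposited table, a 1.72-fold higher value with the optimized extraction. Its 3 relatives spread around it: the authors' deposited table listed Steap2 at 0.88, Steap3 at 0.68 and Steap1 at 0.46. Of 22 genes of iron and copper handling 21 were shared, 19 of them below the shared median and 4 at least 2-fold higher, against 63.0% of all shared genes. Their median was 0.79, and 0.81 over the 18 that are not among the 8. The transferrin gene Trf at 0.16 and the ferritin light chain gene Ftl1 at 0.44 were the lowest of these 18 in the authors' deposited table. The highest was Slc25a37, which encodes the mitochondrial iron importer mitoferrin 1, at 1.74 in the authors' deposited table.

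Osmr, the receptor gene of the set, lay second from the top. It encodes the receptor subunit that binds oncostatin M together with gp130, the signalling subunit shared by the IL-6 family of cytokines. The authors' deposited table listed Osmr (chromosome 15, 6813577 to 6874969, minus strand) at 0.79, a 1.73-fold higher value with the optimized extraction. The gp130 gene Il6st stood at 0.99 and the leukaemia inhibitory factor receptor gene Lifr at 0.95 in the authors' deposited table, both above Osmr. Both lay below the shared median, as did the receptor genes Cntfr at 0.90, Il6ra at 0.92 and Il27ra. The receptor gene Il11ra1 at 1.17 lay above that median. The IL-6 family and its JAK-STAT signalling genes were spread to either side of the shared median. Of 26 genes 20 were shared, 11 below the shared median and 10 at least 2-fold higher (50.0%, against 63.0%), with a list median of 1.01. The lowest was the receptor gene Il27ra at 0.67 in the authors' deposited table. The highest were Socs3, the feedback inhibitor gene that STAT3 induces, at 1.74 and the cytokine gene Clcf1 at 1.41 in the authors' deposited table. Stat3 itself stood at 1.15 in the authors' deposited table. Il6 was listed for the optimized extraction alone and Il11 for the standard extraction alone.

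Other acute-phase and inflammation-induced genes did not lie low as a list. Of 23 such genes 13 were shared, with a list median of 1.09. Among these 6 lay below the shared median and 7 were at least 2-fold higher (53.8%, against 63.0% of shared genes). The lowest were the plasma protein gene Itih3 at 0.55 and the lipopolysaccharide-binding protein gene Lbp at 0.61 in the authors' deposited table. The highest were the chemokine gene Cxcl1 at 1.58 and the transcription factor gene Cebpd at 1.38 in the authors' deposited table.

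A published panel of pan-reactive astrocyte markers holds 6 of the 8 members, all but C3 and Serping1. All 13 panel genes were shared, and the panel median was 0.79. Among these 11 lay below the shared median and 3 were at least 2-fold higher (23.1%, against 63.0% of shared genes). These counts include the 6 members. The 7 panel genes that are not members had a median of 0.84. Of these 7, 5 lay below the shared median and 3 were at least 2-fold higher. The lowest of the 7 were Hspb1, a small heat shock protein gene, at 0.70 and the asparaginase gene Aspg at 0.73 in the authors' deposited table. The filament genes Vim at 1.13 and Gfap at 1.11 were the highest in the authors' deposited table.

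**Figure D3:**
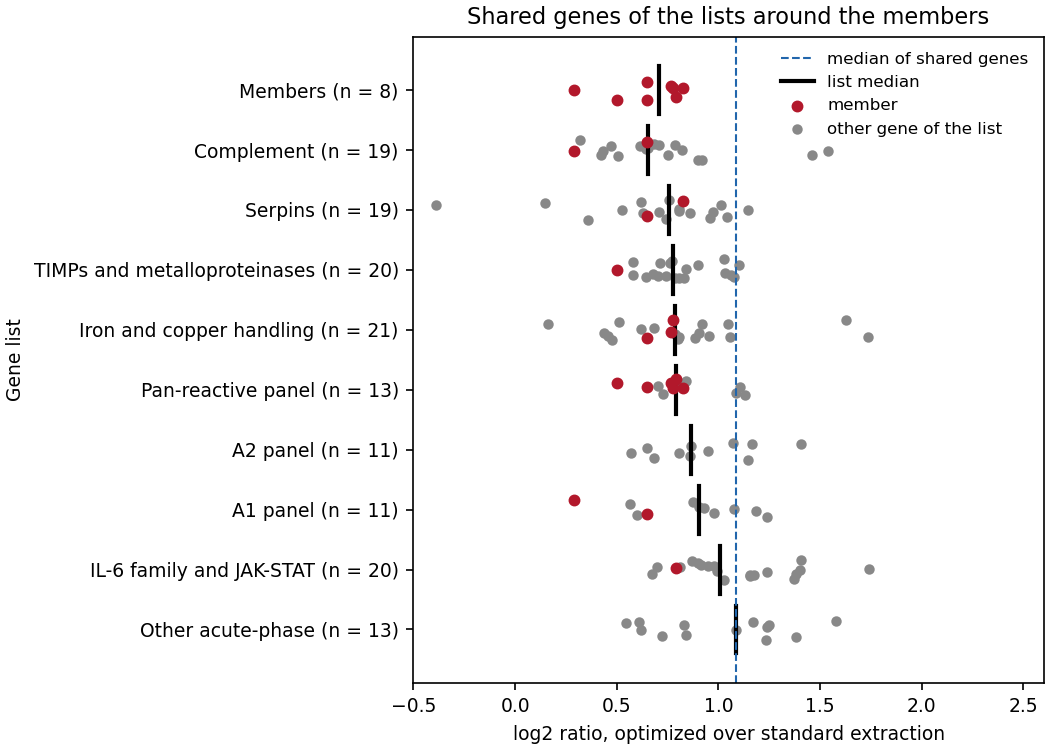
Log2 ratio of each shared gene of 10 lists, with members in red, other genes in grey, the list median as a black bar and the median of all shared genes as a dashed line; vertical scatter within a row is only for visibility. List medians run from 0.65 for complement genes to 1.09 for other acute-phase genes.

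By the sequence measure above, 6 of the 8 proteins have an N-terminal hydrophobic window: C3, Timp1, Cp, Lcn2, Osmr and Serpina3n. Among 12591 shared protein-coding genes with a sequence, 1889 (15.0%) have one, and their median log2 ratio was 0.87 (quartiles 0.71 and 1.06). The 2445 genes with a window further on only, Steap4 among them, had a median of 1.00. The 8257 genes with no window, to which the measure assigns Serping1 although its protein is secreted, had a median of 1.14. Of the genes with an N-terminal window 78.8% lay below the shared median and 32.8% were at least 2-fold higher. The 6 members of that class lay below its median: 3.18% of the class lay at or below C3, 9.21% at or below Timp1, 19.2% at or below Cp, 33.0% at or below Lcn2, 36.7% at or below Osmr and 42.2% at or below Serpina3n. Set against the same class, to which they do not belong, Serping1 lay at 19.1% and Steap4 at 35.0%. The members were chosen with earlier results of these data known, so this is a description, and no test was made of whether they lie lower than other genes of a class.

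The order of the members did not follow protein length. The 8 proteins ranged from 200 residues (Lcn2) to 1663 residues (C3), with a median of 487, against 474 for shared protein-coding genes. The shared protein-coding genes were split into 4 length classes of near-equal size. The shortest class, up to 296 residues, had the highest median log2 ratio, 1.19, and the longest, from 757 residues, had a median of 1.03. Both short members lay low in the shortest class: 2.25% of that class lay at or below Timp1 (205 residues) and 8.78% at or below Lcn2. In the longest class C3 lay at 1.59%, Cp (1061 residues) at 9.05% and Osmr (971 residues) at 16.8%. In the middle classes Serping1 (504 residues) lay at 7.79%, Steap4 (470 residues) at 13.2% and Serpina3n (418 residues) at 18.0%. The members are listed next in order of rising ratio. Their 3′ untranslated regions in the representative transcripts were 43 bases long in C3, 103 in Timp1, 187 in Serping1 and 613 in Cp. Those of Lcn2, Steap4, Osmr and Serpina3n were 232, 1655, 1794 and 723 bases long. The members with the lowest ratios, C3, Timp1 and Serping1, thus had the shortest regions. Those with the highest ratios, Steap4, Osmr and Serpina3n, had the longest, though the rise was not steady. Whether this length and the ratio go together was not tested. The median over the 8 members was 422.5 bases, against 1016 bases (quartiles 411.5 and 2067) for shared protein-coding genes. Median transcript length was 2609.5 bases for the members and 3049 bases for shared protein-coding genes.

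**Figure D4:**
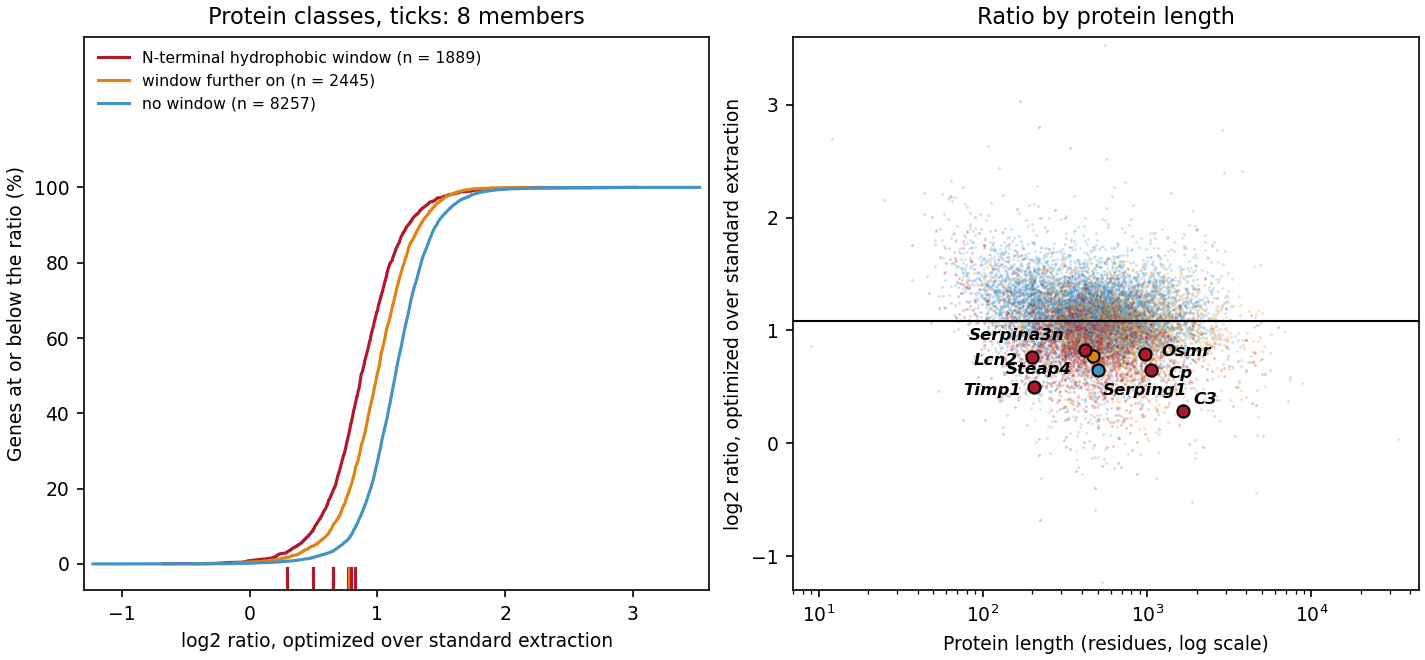
Left: percentage of shared protein-coding genes at or below each log2 ratio, for proteins with an N-terminal hydrophobic window (red), a window further on (orange) or none (blue); ticks under the curves mark the 8 members in the colour of their class. Right: log2 ratio against protein length on a log scale, with members outlined and named and the shared median as a line; all 8 lie below that line, at lengths from 200 to 1663 residues.

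Marker genes of several cell types were looked up among the listed genes. How abundant a listed gene was is not known, so the label of the cells could not be checked this way. All 10 astrocyte markers were shared, among them Gfap, Aqp4, Gja1 and Sox9, with a median log2 ratio of 0.97. C3 is also a gene of microglia, the brain's resident macrophages: of 10 microglia and macrophage markers 3 were shared, Tmem119 and Cd68 among them, and Aif1, Itgam, Cx3cr1, P2ry12, Csf1r, Ptprc and C1qa were in none of the tables analysed. The 3 had a median log2 ratio of 0.75. Of the oligodendrocyte lineage markers 7 of 10 were shared (median 0.91), of the neuron markers 6 of 10 (median 0.68) and of the endothelial, mural and fibroblast markers 9 of 11 (median 0.65). Which cells the members' RNA came from was not tested.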

How the data were processed

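The submitters' processing notes name TopHat2, featureCounts and build mm10. Per the file headers, the authors deposited a log2 fold change of optimized over standard extraction for each gene. Tool versions, annotation, strand setting, library scaling, the handling of batches and the rule for a detected gene were not given in the sources used here. Tables of genes detected in a single extraction hold no value. Unmatched columns of per-sample values numbered 0.

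No test across libraries was possible from 1 ratio per gene, so members and lists are described by counts and medians beside all shared genes. A gene was counted as different at 2-fold or more. The members and the lists were chosen with earlier results of these data known. Gene identifiers were matched to GENCODE M21 (GRCm38, the assembly of mm10), which held 13273 of 13278 shared genes, 614 of 617 genes of the optimized extraction alone and 75 of 75 of the standard extraction alone. Per gene a representative coding transcript gave lengths and sequence. A hydrophobic window was 19 residues with a mean Kyte-Doolittle value (Biopython 1.88) of at least 1.6, called N-terminal when it began within the first 40 residues; it is no signal peptide predictor. Named by rule were the 8 members and, per list, the 2 highest and 2 lowest shared genes that are not members and any gene of a single extraction; some genes are not reported here. C4b, C1ra, C1s1, Masp1, C3ar1, Slc22a17, Lrp2, Heph, Il6st, Lifr, Cntfr, Il6ra, Il11ra1, Stat3, Serpina3m and the other Timp and Steap genes were chosen after their values were seen. Another annotated gene overlaps C3, Cd46, Trf, Ftl1, Slc25a37, Heph, Clcf1, Il11ra1, Timp2, Serpina3m, Aspg and Fkbp5 on the same strand, so their values are uncertain to that extent. The calculation of the summaries was run on shuffled ratios with known shifts added. It returned those shifts, as a median must, so only the calculation was checked and no result. Python 3.11.15, numpy 2.4.6, pandas 2.3.3 and matplotlib 3.10.9 were used.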

Additional observations from a re-analysis of the deposited data

How the results depend on the processing

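All 8 members lay below the median in 3 comparisons: with all shared genes, with protein-coding genes alone and with genes that have an N-terminal hydrophobic window. The median log2 ratio of the 8, 0.71, became 0.66 as a mean and 0.77 without Timp1, the member in the authors' lists. Leaving out each member in turn gave medians of 0.65 to 0.77. Centring on the shared median turned each sign by construction: the members' median became -0.38, with C3 at -0.80, Timp1 at -0.59, Serping1 at -0.44, Cp at -0.44, Lcn2 at -0.32, Steap4 at -0.31, Osmr at -0.30 and Serpina3n at -0.26. At a threshold of 1.5-fold in place of 2-fold, 6 of the 8 members (all but C3 and Timp1) were counted as higher in the optimized extraction, against 94.6% of the shared genes. With 2-fold taken from the shared median the count stayed at 0. With a mean Kyte-Doolittle value of at least 2, 3 members in place of 6 had an N-terminal window (C3, Timp1 and Serpina3n), and the median of that class became 0.89 in place of 0.87. The median of genes with a window further on became 0.91 in place of 1.00, so that it lay 0.02 above that of the N-terminal class in place of 0.12. No paired analysis was possible because the tables hold 1 ratio per gene and no value per batch, so leaving out a batch could not be tried either. Depth is unknown, and so is the precision of each ratio.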

Other observations

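The panels of astrocyte markers called A1 and A2 in work on mice were also described. Of the 13 A1 genes, which include C3 and Serping1, 11 were shared, with a median log2 ratio of 0.90. Among these 9 lay below the shared median and 3 were at least 2-fold higher (27.3%, against 63.0% of shared genes). The interferon-induced GTPase genes Gbp2 at 0.57 and Iigp1 at 0.60 in the authors' deposited table were the lowest A1 genes that are not members. The immunoproteasome gene Psmb8 at 1.24 and Fkbp5 at 1.19 were the highest in the authors' deposited table. Srgn, which encodes the proteoglycan serglycin, was listed for the standard extraction alone. Of the 12 A2 genes 11 were shared, with a median of 0.86. Among these 8 lay below the shared median and 4 were at least 2-fold higher (36.4%, against 63.0% of shared genes). Cd109 at 0.57 and the cyclooxygenase 2 gene Ptgs2 at 0.65 were the lowest A2 genes in the authors' deposited table. The cytokine gene Clcf1 at 1.41 and S100a10 at 1.17 were the highest in the authors' deposited table.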
